A study of Mus musculus with 3 samples.

Results

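The interval from 61000000 to 68500000 on mouse chromosome 13 (build mm9, positions counted from 1) was described in the H3K9me3 and KAP1 peak lists of proliferating myoblasts. Every region whose midpoint fell in this interval was taken, which gave 600 of the 39526 H3K9me3 regions and 99 of the 19549 KAP1 peaks. The interval is known for clusters of KRAB zinc finger genes. Both libraries came from C2C12, an established myoblast line labelled as strain C3H, grown in DMEM with fetal calf serum and labelled as proliferating. KAP1 was immunoprecipitated with a homemade rabbit polyclonal antibody and H3K9me3 with a Diagenode antibody. A library made without antibody belongs to the same study, and its peaks or coverage were not analysed here. There was 1 library per antibody, so no value carries a spread between replicates and no test between conditions was possible. Read depth is unknown, and so is the number of DNA copies that this cultured line carries over the interval.

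H3K9me3, trimethylation of lysine 9 of histone H3, marks compacted and silenced chromatin. KAP1, also called TRIM28, is a corepressor with no DNA binding specificity of its own. KRAB zinc finger proteins bind DNA through arrays of zinc fingers and bring KAP1, which in turn brings the methyltransferase SETDB1 that writes H3K9me3. The genes for these proteins stand in tandem clusters that grew by duplication, and in several cell types the clusters themselves are known to carry H3K9me3, often over the part of the gene that encodes the finger array. In the gene order of GRCm38.p6, another mouse build, chromosome 13 has a run of 25 neighbouring protein-coding genes with zinc finger or Rsl names, from Zfp712 to Zfp273, and the next longest such run has 2. The run includes Rsl1, a KRAB zinc finger gene that represses sex-specific liver genes. Genes of that build were not placed on mm9 positions. The name of the cluster therefore rests on the interval's known content, and regions are given by position.

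H3K9me3 regions stood close together in most of the interval, though not from 63.3 to 65.1 Mb, a stretch described below. The interval takes up 6.41% of the covered span of chromosome 13 and held 25.3% of the chromosome's 2375 H3K9me3 regions, at 80 regions per Mb (exact Poisson 95% interval 73.7 to 86.7). The rest of chromosome 13 held 16.2 per Mb (15.5 to 17.0). The ratio of the densities was 4.94, with an exact conditional 95% interval of 4.49 to 5.42. Without 65 to 67 Mb, where regions were most numerous, it was 2.93 (2.56 to 3.34). These intervals, like all others here, cover counting error over regions only, and neighbouring regions are not independent. In covered length the ratio was close to that of the counts: H3K9me3 regions covered 582.3 kb of the interval, 7.76% of its length, against 1.74% of the rest of the chromosome, a ratio of 4.47. Among 14 windows of the same length laid end to end along chromosome 13, the other 13 held between 12 and 19.3 H3K9me3 regions per Mb, with a median of 17.1. By covered length the other windows held between 92.3 and 177.2 kb. No other window came near the interval in either measure.

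KAP1 peaks were only moderately denser. The interval held 13.2 KAP1 peaks per Mb (10.7 to 16.1) and the rest of chromosome 13 held 8.66 (8.12 to 9.23), a ratio of 1.52 (interval 1.23 to 1.88). Without the part from 65 to 67 Mb, where H3K9me3 regions were most numerous, the KAP1 ratio was 1.22 and its interval, 0.918 to 1.59, included 1. Of the other windows of the same length, 1 held 130 KAP1 peaks and 1 held 99, as many as the interval. The plot of windows along the chromosome shows the interval far above the rest for H3K9me3 and inside their range for KAP1.

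**Figure D1:**
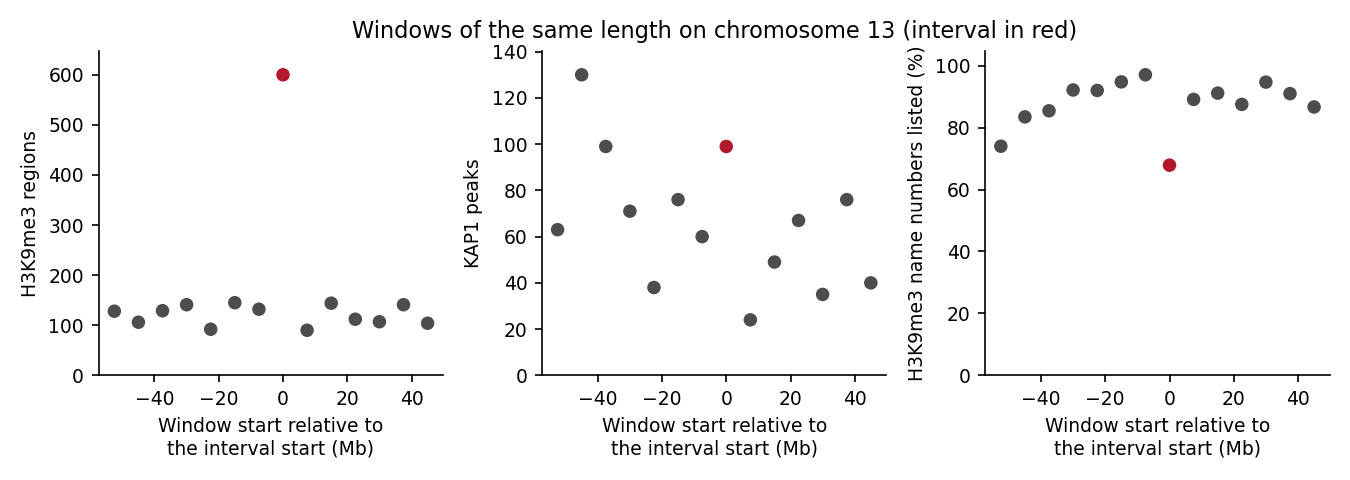
Windows of the same length on chromosome 13, by the distance of their start from the start of the interval (Mb); the panels give H3K9me3 regions, KAP1 peaks and the percentage of H3K9me3 name numbers that the list holds, and the red point is the interval. The interval had 600 H3K9me3 regions, 80 per Mb, where the other 13 windows had 12 to 19.3 per Mb, and it had the lowest percentage of listed name numbers, 67.9%.

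The H3K9me3 regions of the interval were mostly narrow, with a few very wide ones. Their median width was 406.5 bp (interquartile range 211.5 to 859.25), against 667 bp (349.5 to 1265.5) on the rest of the chromosome. That median was below those of the other 13 windows, which ran from 496 to 942 bp. At the other end, 20 regions (3.33%) were 5 kb or wider, against 1.80% on the rest of the chromosome, and these 20 made up 29.6% of the covered length, against 11.8%. Regions of 3 kb or more numbered 41 and made up 42.5% of the covered length, against 28.6%. The score, a number that the authors deposited and whose meaning is not given in the sources used here, followed width (Spearman's rho of 0.963 over the 600 regions of 1 library). The median score was 41 in the interval and 57 on the rest of the chromosome.

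Gaps between neighbouring H3K9me3 regions were mostly short. The median gap was 2.54 kb in the interval and 31.4 kb on the rest of chromosome 13. Of 600 gaps, 191 (31.8%) were 1 kb or less, against 9.36%, and 400 (66.7%) were 5 kb or less, against 23.6%. The plot of widths and gaps shows the interval's curve shifted towards both narrower regions and shorter gaps.

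**Figure D2:**
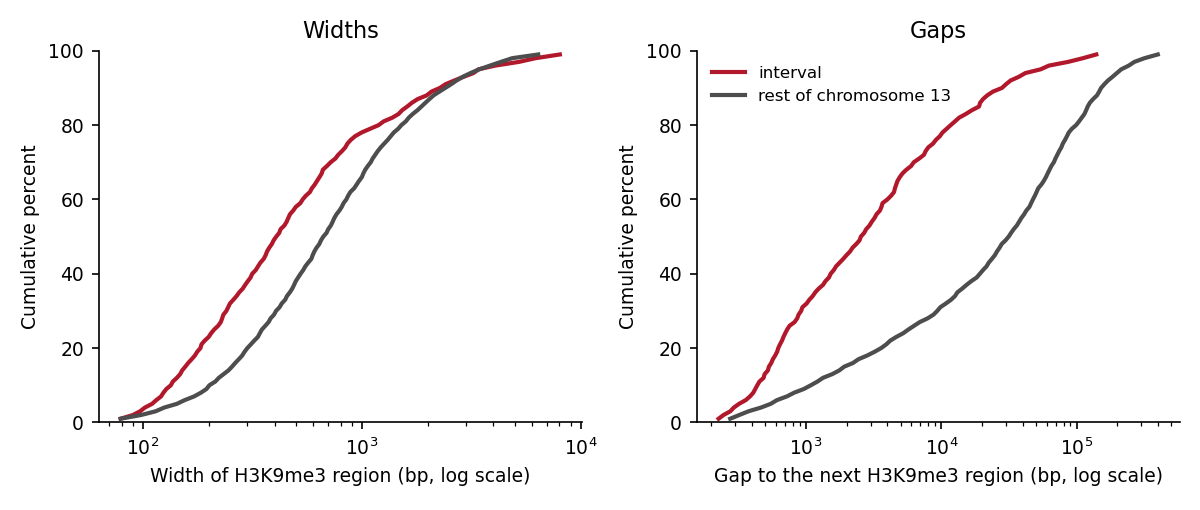
Cumulative percentage of H3K9me3 regions by width (left, bp, log axis) and of gaps to the next region (right, bp, log axis) in the interval and on the rest of chromosome 13. At their medians the interval stands at 406.5 bp of width and 2.54 kb of gap, and the rest of the chromosome at 667 bp and 31.4 kb.

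Chaining regions no more than 5 kb apart joined the 600 regions into 200 blocks, and the number depended on the distance, with 409 at 1 kb and 133 at 10 kb. In the interval 86 blocks (43.0%) were a single region, against 78.9% on the rest of the chromosome. The median block spanned 3.36 kb (interquartile range 0.780 to 8.38), against 0.877 kb (0.433 to 2.18). Blocks of 5 or more regions numbered 40 and held 51.4% of the regions, whereas the rest of the chromosome had 7 such blocks with 2.37% of its regions. H3K9me3 regions covered 46.6% of the blocks' span, against 72.1%. A block of a single region is covered whole by definition, and such blocks were less frequent in the interval. Blocks of several regions were not compared on their own. Gaps between blocks had a median of 15.7 kb, against 50.1 kb.

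Bins of 100 kb showed an uneven profile. The median bin of the interval held 6 H3K9me3 regions (interquartile range 2 to 12), and the median of 1094 bins on the rest of the chromosome was 1 (0 to 2). At least 10 regions stood in 26 of the 75 bins (34.7%), against 2 of 1094 (0.183%). Of the 20 bins of chromosome 13 with most regions, 19 lay in the interval, as did 15 of the 20 with most covered length. Bins without any H3K9me3 region were less frequent in the interval, with 8 of 75 (10.7%) against 325 of 1094 (29.7%). Of these, 7 in the interval and 253 on the rest of the chromosome had no KAP1 peak either.

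**Figure D3:**
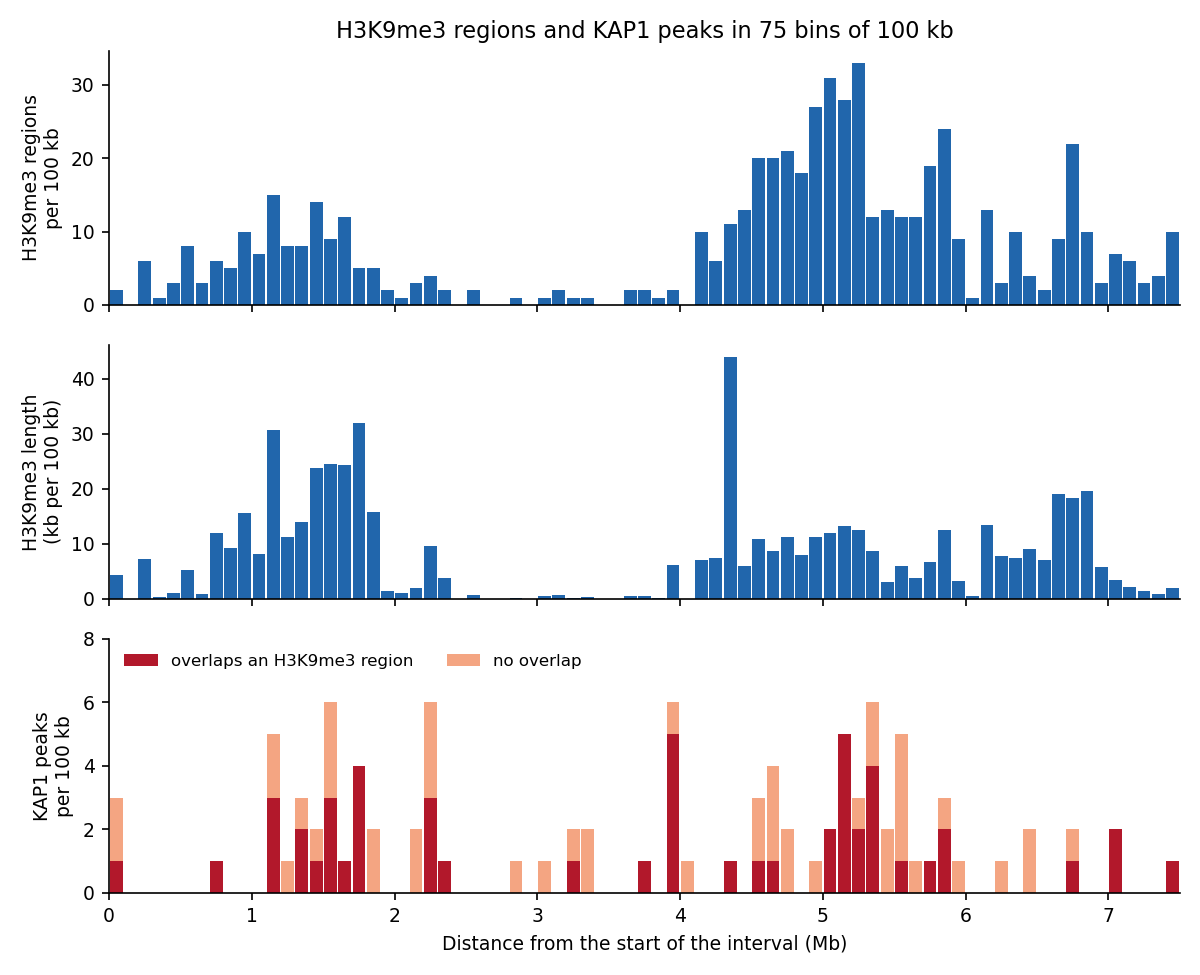
H3K9me3 regions (top), the length they covered in kb (middle) and KAP1 peaks (bottom, coloured by overlap with H3K9me3) in 75 bins of 100 kb, by distance from the start of the interval in Mb. Region counts reach 33 per bin in the right part, covered length reaches 44.0 kb in a single bin, and a stretch of 18 bins between the enriched parts holds at most 2 regions per bin.

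The interval divided into 4 stretches that differed in kind. The longest run of bins with at most 2 H3K9me3 regions each, from 63.3 to 65.1 Mb, separates a left part from a right part, and the right part was split at 67 Mb; both limits were chosen after the values were seen. The left stretch, from 61 to 63.3 Mb, held 137 regions at 59.6 per Mb (50.0 to 70.4), and they covered 11.1% of its length. Regions there were wide, with a median of 841 bp (interquartile range 415 to 2327), and 11 of the interval's 20 regions of 5 kb or more were among them. This stretch had 22.8% of the interval's regions and 43.7% of its covered length.

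The middle stretch was poor in H3K9me3. It held 17 regions, 9.44 per Mb (5.50 to 15.1), covering 0.770% of its length, and 7 of its 18 bins were empty. Its longest gap without H3K9me3 spanned 245.2 kb, from 63814668 to 64059822, with 2 KAP1 peaks in it. On chromosome 13 as a whole 67 gaps were longer than that. The longest runs of empty bins were 63.6 to 63.8 Mb and 64.4 to 64.6 Mb, with 0 KAP1 peaks in either, and 61.1 to 61.2 Mb was the first of the single empty bins. The low density of this stretch follows from how it was chosen and is given as a description.

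The stretch from 65.1 to 67 Mb had the most H3K9me3 regions per Mb, though not the most covered length, and most of its regions were narrow. It held 339 regions, 178.4 per Mb (159.9 to 198.5), and their widths had a median of 309 bp (171 to 585.5 between the quartiles). These were 56.5% of the interval's regions and 33.7% of its covered length, and they covered 10.3% of the stretch, close to the 11.1% of the left stretch. Wide regions had a part in this, since 7 regions of 3 kb or more made up 22.3% of the covered length and the bin from 65.3 to 65.4 Mb alone held 44.0 of 196.3 kb. From 66 to 67 Mb, where the median width was 267 bp, coverage was 8.18%. The bins with most regions were 66.2 to 66.3 Mb with 33, 66 to 66.1 Mb with 31 and 66.1 to 66.2 Mb with 28. Their median widths were 288, 358 and 275 bp. By covered length the leading bins were 65.3 to 65.4 Mb with 44.0 kb, 62.7 to 62.8 Mb with 32.0 kb and 62.1 to 62.2 Mb with 30.7 kb, and each of these contained 1 of the 3 widest regions of the interval.

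From 67 Mb to the end the density fell to 71.3 per Mb (58.5 to 86.2). There were 107 regions with a median of 497 bp and 7.84% of the length covered. Beyond the interval the density was 16.4 per Mb in the 5 Mb before it and 8.80 per Mb (6.39 to 11.8) in the 5 Mb after it. H3K9me3 covered 1.83% and 0.492% of these flanks.

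More numbers were skipped in the names of the H3K9me3 regions of the interval than elsewhere on the chromosome. Names carry a number that rises with position along each chromosome in both lists. Between the first and the last H3K9me3 region of the interval 884 numbers are spanned and 600 are listed, 67.9% (Wilson 95% interval 64.7 to 70.9). On the rest of chromosome 13 the share was 88.7% (87.2 to 90.0), a difference of -20.8 percentage points (interval -24.2 to -17.5). Of the 284 absent numbers, 250 fell between 65.1 and 67 Mb, where 57.6% (53.5 to 61.5) of the numbers were listed. In the left stretch the share was 93.8% (88.7 to 96.7). For KAP1 the shares were 55.3% in the interval and 56.2% on the rest of the chromosome, a difference of -0.920 points (interval -8.61 to 6.56). Whether a skipped number was a call, and which step left it out, is not given in the sources used here. The stretch from 65.1 to 67 Mb spanned 589 numbers, the most of the 4 stretches described above.

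The 5 widest H3K9me3 regions of the interval were 11461 bp or longer, and 3 of them held no KAP1 peak. The widest spanned 22420 bp, from 62760547 to 62782966, scored 2396 and held 4 KAP1 peaks. The next spanned 18448 bp, from 65386920 to 65405367, scored 2315, and had its closest KAP1 peak 35.4 kb away. The third, 13065 bp from 62145875 to 62158939, held 1 KAP1 peak. The fourth, 11780 bp from 62553332 to 62565111, lay 9.41 kb from the nearest KAP1 peak. The fifth, 11461 bp from 62872953 to 62884413, lay 41.2 kb from it. All but the second of these stood in the left stretch, inside 738.5 kb.

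Among the widest blocks 2 kinds could be seen. The block from 65344540 to 65406379 spanned 61.8 kb, joined 12 regions and was 72.1% covered, and the block from 62120890 to 62163482 spanned 42.6 kb, joined 12 regions and was 64.5% covered. The blocks from 66210779 to 66250616 and from 66259372 to 66291312, 39.8 and 31.9 kb long, joined 18 and 15 regions but were only 19.1% and 15.3% covered. The fifth, from 65181232 to 65209820, joined 16 regions over 28.6 kb and was 50.8% covered. The first 4 of these blocks held 1, 1, 2 and 1 KAP1 peaks, and the fifth lay 83.3 kb from the nearest one.

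KAP1 peaks of the interval met H3K9me3 in about 50% of cases. In the interval 51 of 99 KAP1 peaks overlapped an H3K9me3 region by at least 1 bp, 51.5% (Wilson interval 41.8 to 61.1), where the background of the whole KAP1 list was 44.1%. On the rest of chromosome 13 the share was 44.9% (41.8 to 48.1), and the difference of 6.58 points had an interval of -3.64 to 16.7. That interval includes 0, so no difference in share was detected at these counts, while H3K9me3 covered 4.47 times as much of each Mb. KAP1 peaks without overlap lay nearer to H3K9me3, with a median distance of 5.76 kb in the interval and 23.3 kb on the rest of the chromosome. Gaps between H3K9me3 regions were shorter too, with medians of 2.54 and 31.4 kb, and their part in the distance was not tested. Across the 75 bins, counts of the lists had a Spearman's rho of 0.419, and KAP1 counts and covered length had one of 0.450; on the rest of the chromosome these were 0.375 and 0.431. Bins of 1 library pair share mappability and copy number, and the values are descriptions.

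Few H3K9me3 regions of the interval held KAP1. Of the 600 regions 40 held a KAP1 peak, 6.67% (4.93 to 8.95), where the background of the whole H3K9me3 list was 15.4%. On the rest of chromosome 13 it was 16.5% (14.8 to 18.2), and the difference was -9.78 points (interval -12.3 to -6.97). The share in the interval was 11.9% among the upper 50% of H3K9me3 regions by score, and 10.2% of all 600 regions had KAP1 within 1 kb. Neither value was taken for the rest of the chromosome, so they cannot be set against its 16.5%. Of the other windows of the same length, 1 of 13 had a lower share, 5.56%, and their median was 16.04%. Of the 26 bins of the interval with at least 10 H3K9me3 regions, 7 had no KAP1 peak. Over all bins, 35 of 75 in the interval (46.7%) and 655 of 1094 on the rest of the chromosome (59.9%) had none. Bins without KAP1 were thus less frequent among these 26 than over all bins of the interval. The rest of the chromosome had only 2 bins with that many regions, too few to compare. Counted by block, the share with KAP1 was 16.5% (12.0 to 22.3) in the interval and 16.9% (15.0 to 19.0) on the rest of the chromosome, a difference of -0.388 points (interval -5.35 to 5.68). A block counts several regions once, and blocks of the interval were longer.

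The share was lower in each of 4 width classes of the chromosome. Applying the shares of the rest of the chromosome to the interval's regions by width class gave 82.5 regions with KAP1, 13.7%, where 40 were observed. That calculation takes no account of how many KAP1 peaks were available. The interval held 99 KAP1 peaks, 51 of them overlapping H3K9me3. H3K9me3 regions were 4.94 times as dense as on the rest of the chromosome, and KAP1 peaks 1.52 times. The part of these densities in the lower share was not tested. In the widest class, 1193 bp and more, 22 of 120 regions held KAP1 (18.3%, interval 12.4 to 26.2), against 38.8% (34.5 to 43.3). In the narrowest class, up to 305 bp, the shares were 3.43% (1.75 to 6.63) and 6.81% (4.66 to 9.86), and their intervals overlapped. They also overlapped in the class from 306 to 600 bp, with 4.73% and 5.67%, and not in the class from 601 to 1191 bp, with 3.03% (1.04 to 8.53) and 11.8% (9.21 to 14.9).

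In percentage points the difference was largest among the wide regions, where the share on the rest of the chromosome was also highest. Of the 41 regions of 3 kb or more, 9 held a KAP1 peak, 21.95% (12.0 to 36.7), whereas on the rest of chromosome 13 it was 83 of 115, 72.2% (63.4 to 79.5). The difference was -50.2 points (interval -62.6 to -33.0). On the other autosomes together 70.9% (69.0 to 72.8) of 2112 such regions held KAP1. At 5 kb and more the shares were 4 of 20 in the interval (20%, interval 8.07 to 41.6), 27 of 32 on the rest of chromosome 13 (84.4%, interval 68.2 to 93.1) and 77.6% of 701 on the other autosomes. The 32 regions of 3 kb or more without KAP1 added up to 178.2 kb of H3K9me3 and their median distance to KAP1 was 29.8 kb. By stretch, wide regions with KAP1 were 6 of 23 on the left, 1 of 1 in the middle, 2 of 7 from 65.1 to 67 Mb and 0 of 10 after 67 Mb.

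**Figure D4:**
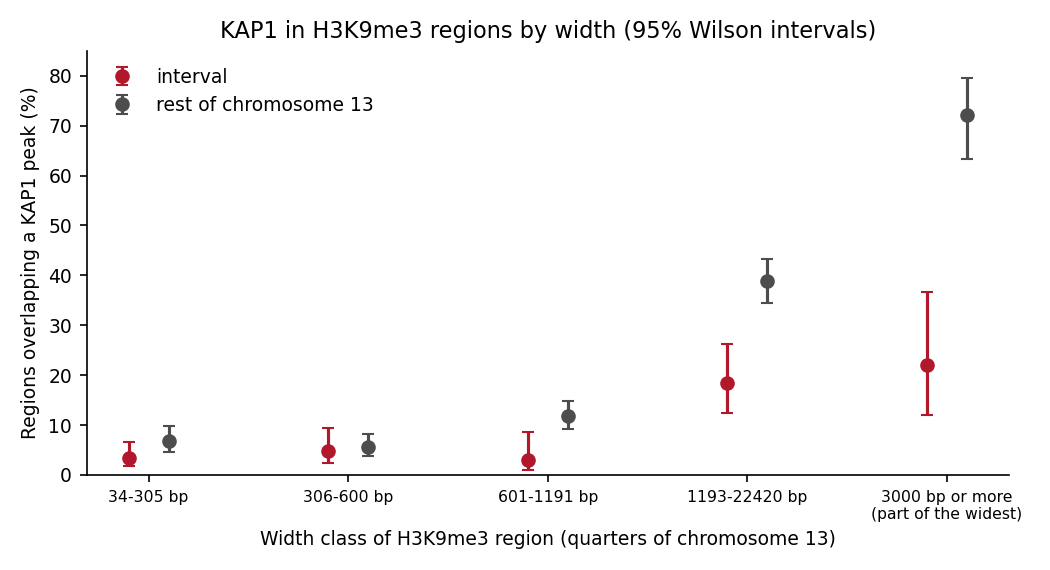
Percentage of H3K9me3 regions that overlap a KAP1 peak, by width class, in the interval and on the rest of chromosome 13; bars are 95% Wilson intervals. The shares are closest from 306 to 600 bp, at 4.73% in the interval and 5.67% on the rest of the chromosome. In percentage points they are farthest apart for regions of 3000 bp or more, at 21.95% and 72.2%.

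The place of KAP1 peaks within wide regions was also measured. There were 17 KAP1 peaks with their midpoint in 9 regions of 3 kb or more, a median of 1.16 kb and at most 5.43 kb from the nearest end. The 22420 bp region had its 4 KAP1 peaks in the first part, with midpoints at 3.10%, 6.79%, 10.4% and 21.4% of its length. The 9031 bp region at 62649746 had its single peak at 7.5% of its length. The 13065 bp region had its peak at 41.5% and the 7361 bp region at 65346790 at 61.5%, so not all stood at an end. In regions only a little over 3 kb no point is far from an end, and 10 of the 17 peaks lay in regions under 5 kb. Another 4 shared the 22420 bp region, and a preference for ends was not tested.

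Relative to deposited regions, KAP1 peaks of the interval were more often at an edge than those on the rest of chromosome 13. A peak was called within when 1 region covered it whole, at the edge when it crossed an end or lay up to 1 kb outside one, and between when it lay farther off. In the interval 21 peaks (21.2%, interval 14.3 to 30.3) were within, 41 (41.4%, 32.2 to 51.3) at an edge and 37 (37.4%, 28.5 to 47.2) between. On the rest of chromosome 13 the shares were 24.2% (21.5 to 27.0), 25.5% (22.9 to 28.4) and 50.3% (47.1 to 53.5). The difference at the edge was 15.9 points (interval 6.24 to 26.1), between it was -12.9 points (-22.4 to -2.61), and within it was -2.94 points (-10.4 to 6.48). Of the 41 edge peaks, 30 crossed an end and 11 lay outside. Narrow regions have more ends per length, and more ends per Mb stand in the interval; their part in the edge share was not tested.

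With chained blocks in place of regions the picture changed. In the interval 49 KAP1 peaks (49.5%, interval 39.9 to 59.2) then lay wholly within a block, 16 (16.2%, 10.2 to 24.7) at an edge and 34 (34.3%, 25.7 to 44.1) between blocks. The share within was 17.8 points above the 31.6% of the rest of the chromosome (interval 7.74 to 28.0), and the edge share differed by -1.98 points (interval -8.48 to 6.82). Blocks spanned 16.7% of the interval's length and 2.41% of the rest of the chromosome.

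**Figure D5:**
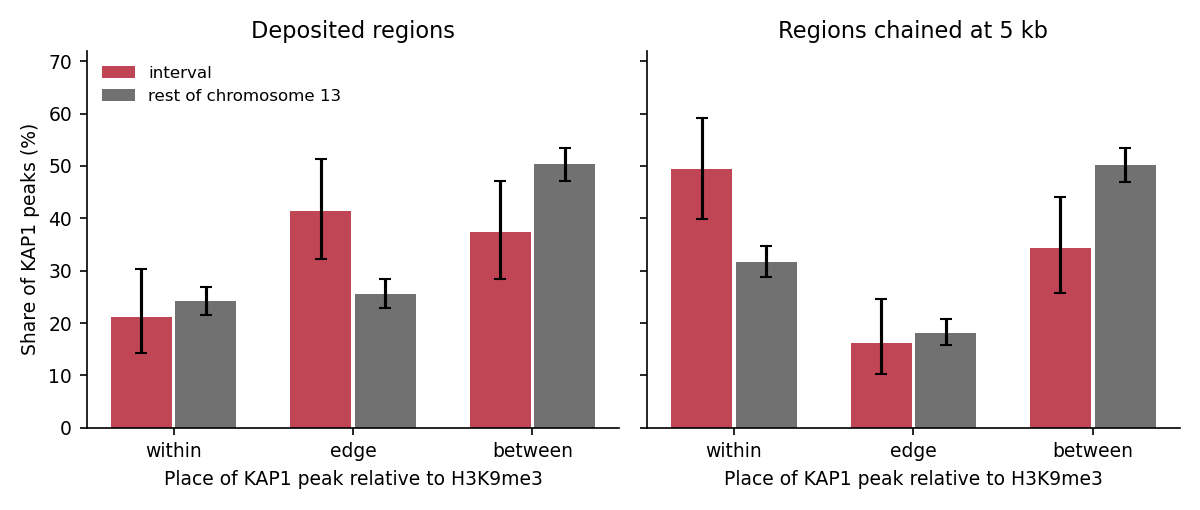
Share of KAP1 peaks within, at the edge of or between H3K9me3 regions (left) and blocks of regions chained at 5 kb (right), in the interval and on the rest of chromosome 13; bars start at 0 and error bars are 95% Wilson intervals. The edge share of 41.4% for regions becomes 16.2% for blocks, and the share within rises from 21.2% to 49.5%.

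KAP1 scores in the interval were moderate. The score, again a deposited number without a stated meaning, had a median of 111.4 (interquartile range 81.3 to 158.4) and a maximum of 493.5. On the rest of the chromosome the median was 115.3 and 92 of 948 peaks (9.70%) were above 500, of which 71 stood between 21 and 24 Mb; outside that window the share was 2.63%. Peaks within an H3K9me3 region had a median score of 124.7, those at an edge 119.4 and those between 95.2. The difference ran the same way on the rest of the chromosome, with medians of 137.5, 126.9 and 103.3.

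The highest-scoring KAP1 peaks with H3K9me3 lay in regions of 3010 to 4073 bp, not in the widest ones. They stood at 62579840 to 62581405 (score 493.5, in a region of 3010 bp), 61051496 to 61052930 (score 408.5, in 3603 bp) and 63263865 to 63265088 (score 400.4, in 3246 bp). The next 2, at 64979519 to 64980411 (score 396.6) and 64980436 to 64982170 (score 376.0), shared a region of 4073 bp in the middle stretch. Without H3K9me3 the leading peaks were at 66479147 to 66479901 (score 379.1) and 64935985 to 64936672 (score 352.8), 13.4 and 43.1 kb from H3K9me3. The other three were at 66531817 to 66533400 (score 259.8), 66222149 to 66223748 (score 246.4) and 63256034 to 63256945 (score 240.4), 9.07, 0.578 and 1.34 kb away. All were narrower than 2 kb.

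KAP1 peaks were unevenly placed along the stretches. There were 36 in the left stretch, 15.7 per Mb (10.96 to 21.7), 15 in the middle, 8.33 per Mb (4.66 to 13.7), 40 from 65.1 to 67 Mb, 21.1 per Mb (15.0 to 28.7), and 8 after 67 Mb, 5.33 per Mb (2.30 to 10.5). The last stretch thus had 71.3 H3K9me3 regions per Mb and few KAP1 peaks, and its KAP1 interval overlapped that of the H3K9me3-poor middle stretch. Peaks that overlapped H3K9me3 were 19 of 36, 8 of 15, 20 of 40 and 4 of 8 in the same order. The share with overlap was thus near 50% in each stretch, but at these counts its intervals were wide. They ran from 30.1% to 75.2% in the middle stretch and from 21.5% to 78.5% after 67 Mb. By Mb, the counts from 61 to 65 Mb were 2 of 4, 14 of 24, 4 of 10 and 7 of 12. They were 3 of 12 from 65 to 66 Mb (8.89% to 53.2%) and 17 of 29 from 66 to 67 Mb (40.7% to 74.5%), with overlapping intervals. The counts were 1 of 5 from 67 to 68 Mb and 3 of 3 after 68 Mb, too few to tell the shares apart. A relation of the share to H3K9me3 coverage, which ran from 0.770% to 11.1% over the stretches, was not tested.

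Most KAP1 peaks stood alone and some stood in small groups. Gaps of 5 kb or less made up 31.3% of the gaps between KAP1 peaks in the interval and 37.1% on the rest of the chromosome, so close spacing was no more frequent here. Chained at 5 kb, the 99 peaks formed 54 single peaks, 8 pairs or threes and 6 groups of 4 or more, and those 6 held 27 peaks. The bins with most KAP1 peaks, 6 each, were 62.5 to 62.6, 63.2 to 63.3, 64.9 to 65 and 66.3 to 66.4 Mb, and each contained 1 of these groups. The group from 64979519 to 64985880 had 5 peaks in 6.36 kb, all overlapping H3K9me3, over 2 regions in an otherwise nearly empty part of the middle stretch. The group from 66113299 to 66120243 had 4 peaks in 6.95 kb, all overlapping, and the group from 66328245 to 66337024 had 5 peaks in 8.78 kb, of which 4 overlapped. From 62574520 to 62581405 there were 5 peaks with 3 overlapping, from 63256034 to 63265088 there were 4 with 3 overlapping, and the 4 peaks from 62760699 to 62765837 all lay in the widest H3K9me3 region. Together 23 of the 27 grouped peaks overlapped H3K9me3, against 28 of the other 72. The 27 peaks stand in only 6 places and are not separate observations. Grouped peaks outside the interval were not counted, so the contrast has no background.

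Other H3K9me3-dense intervals differed from this one in some measures of form and were near it in others. In each of them a low share of H3K9me3 regions held KAP1. In a 3 Mb window of distal chromosome 4 there were 110.3 regions per Mb with a median width of 375 bp, none of 5 kb or more, and 42.4% of name numbers were listed. On proximal chromosome 12, from 18 to 25 Mb, there were 119.1 per Mb with a median of 444 bp and 90.7% of numbers listed. The windows at 81 to 82 Mb on chromosome 10 and 22 to 23 Mb on chromosome 17 had 106 and 87 regions with medians of 1233.5 and 907 bp, covered 26.4% and 26.1% of their length, and had 97.2% and 94.6% of numbers listed. In width and listed numbers the stretch from 65.1 to 67 Mb was nearer to chromosome 4, and the left stretch nearer to chromosomes 10 and 17. The share of H3K9me3 regions with KAP1 was 5.44%, 4.80%, 9.43% and 6.90% in these 4 intervals, all below the 15.4% of the whole list. Counted by block the shares were 12.8%, 14.9%, 25.0% and 13.9%, against 17.5% over all chromosomes. KAP1 peaks themselves were not few there, with 19.3, 11.6, 18 and 11 per Mb in the same order, against 7.57 over all chromosomes. Among regions of 3 kb or more, KAP1 was present in 4 of 5 on chromosome 4, 5 of 21 on chromosome 12, 7 of 28 on chromosome 10 and 3 of 25 on chromosome 17. A low share among wide regions was thus also measured on chromosomes 10, 12 and 17. The edge share of KAP1 peaks was 44.8% on chromosome 4 and 37.0% on chromosome 12, near the 41.4% of this interval. It was 16.7% of 18 peaks on chromosome 10 and 18.2% of 11 on chromosome 17. Wholly within chained blocks lay 36.2%, 48.1%, 50.0% and 63.6% on chromosomes 4, 12, 10 and 17, against 49.5% here. These intervals were chosen with earlier results of the data known, and no test was made between them.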

How the data were processed

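KAP1 and H3K9me3 ChIP-seq peak lists of proliferating C2C12 cells were used, 1 library each. Per the submitters' processing notes, the authors' tools included Bowtie2 2.2.1, with mm9 as the build. The score in each deposited list was used as the authors gave it, only within its list; its meaning, the settings of the callers and the role of the no-antibody library: not given in the sources used here. KAP1 peak names have the form MACS writes, per the file contents. Read depth is unknown, so no detection limit is given.

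Regions were assigned by midpoint, and covered length is the sum of their widths. Overlap needed 1 bp. Density on the rest of chromosome 13 was taken over 109.5 Mb, which is the distance from its first to its last called base less the interval. Shares have Wilson, densities exact Poisson, ratios exact conditional and differences of shares Newcombe intervals, all at 95%. No random placement and no test was run. Classification, chaining and ratio intervals were tested on simulated data. The named regions are the 5 widest H3K9me3 regions and blocks, the 5 highest-scoring KAP1 peaks with and without H3K9me3, and the leading and empty bins. The interval, the lists and the comparison intervals were chosen with earlier results of these data known. An mm9 genome or annotation was not used, so genes and sequences are not given for the regions. Alternatives were score limits, overlap rules, edge margins, chaining gaps, interval limits and background. Python 3.11.15, numpy 2.4.6, pandas 2.3.3, scipy 1.17.1 and matplotlib 3.10.9 were used.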

Additional observations from a re-analysis of the deposited data

How the results depend on the processing

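The H3K9me3 density ratio of 4.94 was 3.57 with only the upper 50% of scores in each list, 2.93 without 65 to 67 Mb and 3.71 with regions within 1 kb merged, and the KAP1 ratio of 1.52 was 1.22 without 65 to 67 Mb. The overlap share of KAP1 peaks, 51.5%, was 67.3% in the upper 50% of KAP1, 39.4% against the upper 50% of H3K9me3 and 62.6% within 1 kb. The share of H3K9me3 regions with KAP1, 6.67%, was 4.83%, 11.9% and 10.2% under the same 3 choices. The edge share of 41.4% was 28.3% against the upper 50% of H3K9me3 and 16.2% with blocks, and the share within of 21.2% was 30.8% in the upper 50% of KAP1 and 49.5% with blocks. Blocks numbered 409, 328 and 133 at chaining gaps of 1, 2 and 10 kb in place of 200. Fewer regions or a looser definition enter by construction; other causes were not tested. The other 21 of 38 alternative values stayed within the interval of the reported value or within 1.5 times it, and no ratio fell below 1. No paired analysis was possible because each antibody has a single library, and leaving out a replicate was impossible for that reason. Unknown read depth and mappability limit what the absence of a region shows.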
